A study of Rattus norvegicus with 30 samples.

Results

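Before any doxycycline was given, rat PC12 lines that carried an inducible huntingtin construct were compared with PC12 cells without a construct. This comparison used 10 of the 30 arrays of the series, chosen by their labels alone. Of these, 8 held RNA of the 4 uninduced construct lines and 2 held RNA of PC12 cells harvested on the same day 0. The construct lines were Q74 line 4, Q74 line 6, Q23 line 1 and Q23 line 5. They were stably transfected with an exon 1 fragment of huntingtin fused to the Green Fluorescent Protein, with 74 (Q74) or 23 (Q23) glutamines, under doxycycline control. From each line 2 RNA isolations were made per day and were averaged here, since they are technical replicates. The remaining arrays, taken after 1 and 5 days in 1 μg/ml doxycycline, served to see whether the day 0 differences lasted. The lines were grown in medium with G418 and hygromycin. For PC12 the authors report the same culture conditions, as a control for doxycycline, without naming these drugs again. PC12 received doxycycline as the lines did.

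PC12 cells are a line from a rat adrenal phaeochromocytoma that makes catecholamines and is widely used as a model of neuronal cells. Lines of this kind are made by introducing a regulator gene and then a regulated gene under drug selection, and by growing single resistant colonies into lines. A line therefore carries the expression state of its founding cell, the selection and the insertion sites of the construct in addition to the construct itself. Day 0 shows what sets the lines apart from PC12 before the huntingtin fragment is switched on, apart from leaky expression. The labels do not say that the PC12 cells were the very stock from which the lines were made. The PC12 arrays were taken as 2 RNA isolations of 1 culture, because the series names only technical replication for PC12, although their sample codes leave separate cultures open. Construct, selection history and culture cannot be told apart in a comparison with 1 PC12 culture.

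Values are on a generalized log scale, read as natural log (ln), on which a difference of 1 is a change of about 2.7 times and dim probes are compressed. Folds below are the exponentials of differences on this scale and log2 differences are rescaled from it, so both understate the change of dim probes. Without a table that pairs these probes with genes, the markers of chromaffin cells, the huntingtin transgene and pathway lists could not be looked up, and probes are described by their identifier, level and pattern. The label of the cells was therefore not checked against markers. In RNA of a whole culture, fewer cells that express a gene and less RNA per cell cannot be told apart.

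The 8 line arrays had means of 5.57 to 5.58, above the 5.52 of the 2 PC12 arrays. Their medians were 4.77 to 4.81, against 4.80 to 4.84 in PC12, while their upper quartiles were higher, 6.32 to 6.4 against 6.27 to 6.29 in PC12. The distributions thus differed in shape and not by a constant. No batch could be tested, since the labels give neither chips nor dates. If the PC12 arrays formed a batch of their own, that batch and the absence of a construct cannot be told apart. One array stood apart among the lines. RNA isolation 1 of Q74 line 4 had a correlation of 0.992 with the mean of the other line arrays, against 0.993 to 0.997 for the other 7, and 90 probes differed by at least 2-fold between the 2 isolations of this line, against 8 to 11 in the other lines and 38 in PC12.

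The construct lines were much closer to each other than to PC12. Over all 22521 probes the correlation between a line and PC12 was 0.972 to 0.976, and between lines it was 0.992 to 0.997. These correlations are across probes, which are not independent replicates. At least 2-fold away from PC12 were 1097 probes in Q74 line 4, 1109 in Q74 line 6, 1086 in Q23 line 1 and 997 in Q23 line 5. Between lines, the most such probes were found between the 2 Q74 lines, with 242, and the fewest between the 2 Q23 lines, with 19. Q74 line 4 was nearer to both Q23 lines, with 94 and 92 probes, than to the other Q74 line. Q74 line 6 differed from Q23 line 1 in 204 probes and from Q23 line 5 in 150. Lines of 1 construct were thus the closest pair for Q23 and the farthest pair for Q74. The order of the pairs on day 0 did not simply follow the length of the glutamine stretch. These counts include RNA isolation 1 of Q74 line 4 and were not repeated without it. The plot of pairwise differences shows this step between lines and PC12.

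**Figure D1:**
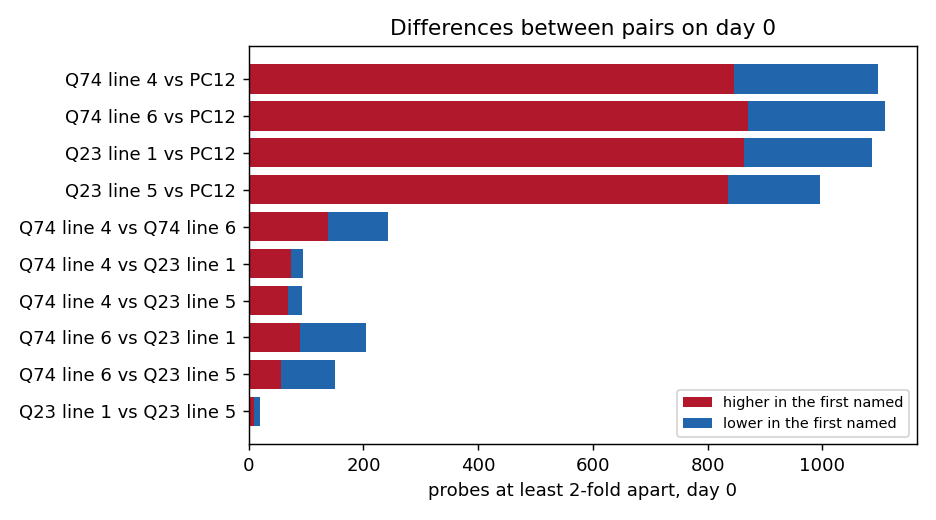
Number of probes at least 2-fold apart between pairs of cultures on day 0 (x axis), with RNA isolations averaged. Red is higher and blue lower in the culture named first. The 4 pairs with PC12 have 997 to 1109 probes, and the 6 pairs of lines have 19 to 242.

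More probes were higher than lower in the lines at this size. In Q74 line 4, 847 probes (3.76%) were at least 2-fold higher and 250 (1.11%) at least 2-fold lower than in PC12. Q74 line 6 had 870 (3.86%) higher and 239 (1.06%) lower. Q23 line 1 had 863 (3.83%) higher and 223 (0.990%) lower, and Q23 line 5 had 835 (3.71%) higher and 162 (0.719%) lower. Within PC12, no probe differed by 2-fold between days 0 and 1 or between days 0 and 5, although 38 did so between its 2 isolations of day 0. This measure leaves out the spread between cultures. Pairs of lines differed in 19 to 242 probes.

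Each probe was also tested with limma, taking the 4 lines as 1 group and PC12 as 1 culture that is assumed to vary like a line. Of 22521 probes, 2484 (11.0%) differed at an adjusted p under 0.05. Of these, 1693 (7.52%) were higher in the lines, with a median fold of 1.85, and 791 (3.51%) were lower, with a median of 1.56-fold. The median SD between the lines was 0.0651 ln over all probes. All 8 line arrays lay above both PC12 arrays for 4127 probes (18.3%) and below both for 2852 (12.7%). Of the probes called higher, 1665 had no overlap between line and PC12 arrays, and of those called lower, 784 had none. The call on the same arrays largely fixes this.

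The balance of higher and lower calls depended on the scaling. In the deposited values 68.2% of the called probes were higher in the lines. After quantile normalization, which gives every array the same distribution, 1396 were higher and 1425 lower (49.5% higher), and after centring on array medians 1898 were higher and 570 lower (76.9% higher). Of the 2484 probes, 2145 were called again after quantile normalization and 2259 after centring. The median difference over all probes was 0.030 ln as deposited, -0.017 after quantile normalization and 0.060 after centring. It also moved with the level of a probe. By deciles of mean level, the median difference of lines minus PC12 was 0.10 ln in the dimmest decile, -0.059 ln in the fifth and 0.092 ln in the brightest. The 2 PC12 isolations differed by a like amount along the same scale, isolation 2 minus isolation 1 being 0.055 ln in the dimmest decile and -0.16 ln in the brightest. Differences no larger than these shifts have no settled direction.

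The number of calls also rested on the spread of 4 lines. Without Q23 line 5 it was 1409, without Q23 line 1 it was 1629, without RNA isolation 2 of Q74 line 4 it was 1368 and with the first isolation of every culture alone it was 1252. Without RNA isolation 1 of Q74 line 4, the array that stood apart, it was 2767.

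A difference was called shared when each of the 4 lines was at least 2-fold from PC12 in 1 direction. This held for 667 probes on day 0, 573 higher (2.54%) and 94 lower (0.417%). They were chosen by these values, which are therefore given without a test. Of the 1222 probes that were 2-fold higher in any line, 46.9% were so in all 4, and of the 404 that were lower in any line, 23.3%. A further 158 were higher in 3 lines, 158 in 2 and 333 in 1. The lower probes were spread more over single lines, with 52 in 3 lines, 84 in 2 and 174 in 1. For 7 probes, 1 line was 2-fold higher and another 2-fold lower than PC12. Quantile normalization left 516 higher and 122 lower shared probes and centring left 612 and 87, so higher shared probes outnumbered lower ones under each of the 3 scalings.

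Most shared differences were moderate in size. Among the 573 higher probes, 240 had a mean fold of 2 to 3, 240 of 3 to 5, 76 of 5 to 10 and 17 of at least 10. Among the 94 lower probes these numbers were 40, 29, 15 and 10. The median fold was 3.24 for the higher and 3.37 for the lower probes. By the line nearest to PC12, the higher probe just inside the limit was at 2.003-fold and the one just outside at 1.999-fold, and the lower ones were at 2.0002-fold and 1.999-fold. The SD between lines was 0.136 ln at the median of the higher probes and 0.118 ln at that of the lower ones, above the 0.0651 ln of all probes, and it was 0.11 and 0.10 of the difference from PC12 at the median. Of the 573 and 94 probes, all had line arrays that did not overlap with PC12, which the choice of members largely fixes. Among all 22521 probes, 18.3% had all line arrays above PC12 and 12.7% below it. The limma fit on the same values called 558 of the 573 and 89 of the 94, against 7.52% higher and 3.51% lower of all probes.

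Most shared probes lay at or above the median of all probes on both sides, although no detection limit was applied. The higher ones had a median level of 7.0 ln in the lines and 5.65 ln in PC12, and the lower ones had 5.25 ln in the lines and 7.09 ln in PC12. Over all probes the medians were 4.78 ln in the lines and 4.82 ln in PC12. By their level in PC12, 105 of the higher probes lay below the median of the array, 263 between the median and the upper quartile and 205 above it. Of the lower probes, 0, 27 and 67 lay in these bands. The lowest PC12 value was 3.97 ln, so most probes of the lowest band could not have been 2-fold lower without going below it. Only a few probes went across the whole range. There were 17 above the upper quartile in the lines and below the median in PC12, and 12 below the median in the lines and above the upper quartile in PC12. By their level in the lines, 33 of the lower probes lay below the median of the line means, 32 between the median and the upper quartile and 29 above it, and of the higher probes 0, 170 and 403 lay in these bands. The plot of levels shows both groups away from the line of equal levels.

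**Figure D2:**
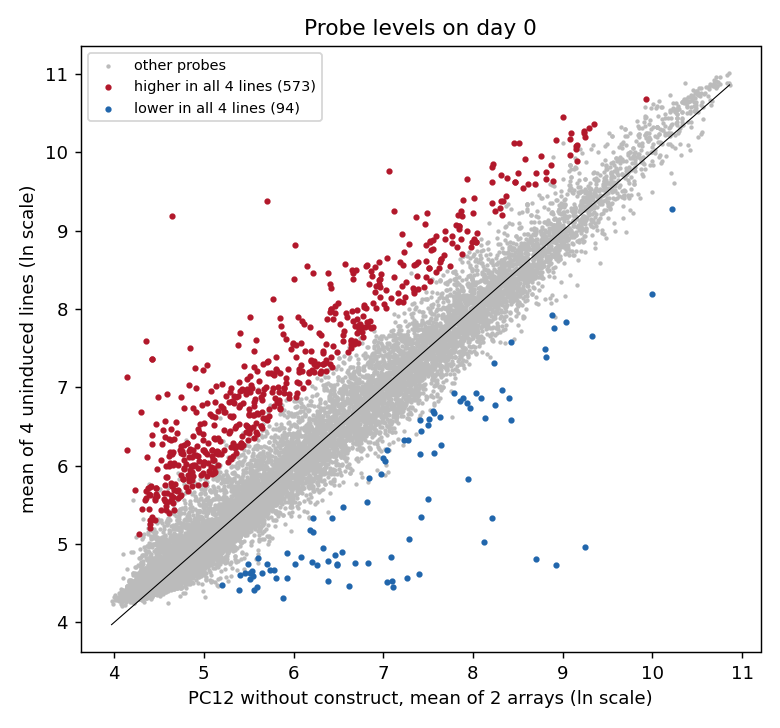
Level of each of 22521 probes on day 0 in the 4 uninduced lines (y axis, mean of 4 line means) and in PC12 without construct (x axis, mean of 2 arrays), both on the ln scale. The 573 probes at least 2-fold higher in all 4 lines are red and the 94 lower ones are blue, and the line marks equal levels.

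The rule for naming took the probes, called by limma on day 0, whose nearest line was farthest from PC12. Their day 0 p-values come from the values that chose them and only describe these probes. Among the higher probes, ILMN_1365133 came first. On day 0 this probe had values of 9.15 and 9.69 ln in Q74 line 4, 9.25 and 9.18 in Q74 line 6, 8.84 and 9.33 in Q23 line 1, and 9.00 and 9.11 in Q23 line 5, against 4.66 and 4.63 in PC12. All line values were above the upper quartile of all probes and both PC12 values below the median of all probes. The lines averaged 9.19 ± 0.17 (SD, n = 4 lines), a log2 difference of 6.56 (SE 0.20, limma adjusted p = 0.00011), and single lines were 82.2-fold to 118-fold higher. After 1 and 5 days the log2 differences were 6.43 (SE 0.18) and 6.43 (SE 0.17), and the line nearest to PC12 on day 5, Q74 line 4, was still 76.9-fold above it.

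ILMN_1359572 was the second of the higher probes. Its day 0 values were 9.48 and 9.56 ln in Q74 line 4, 9.44 and 9.31 in Q74 line 6, 9.30 and 9.38 in Q23 line 1, and 9.35 and 9.19 in Q23 line 5, against 5.71 and 5.70 in PC12. The lines averaged 9.38 ± 0.10 (SD, n = 4 lines), a log2 difference of 5.29 (SE 0.14, limma adjusted p = 6.0e-05). After 5 days in doxycycline its values were lower in both Q74 lines than in either Q23 line. On day 5 it had 8.52 and 8.65 ln in Q74 line 4 and 8.40 and 8.27 in Q74 line 6, while Q23 line 1 had 9.25 and 9.16 and Q23 line 5 had 9.4 and 9.16, against 5.67 and 5.57 in PC12. The isolations of a line are technical replicates, and the difference between constructs was not tested for this probe. Q74 line 6 remained 15.1-fold above PC12 on day 5. The difference of lines and PC12 was 4.67 on the log2 scale on that day (SE 0.56, limma adjusted p = 0.010), and its change from day 0 did not pass the test (limma adjusted p = 0.99).

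At the other end, ILMN_1356366 was dim in the lines and bright in PC12. It had 4.92 and 5.16 ln in Q74 line 4, 4.65 and 4.72 in Q74 line 6, 4.78 and 5.12 in Q23 line 1, and 5.16 and 5.18 in Q23 line 5, against 9.29 and 9.22 in PC12. The lines averaged 4.96 ± 0.20 (SD, n = 4 lines), close to the median of all probes. The log2 difference was -6.19 (SE 0.24, limma adjusted p = 0.00025), and it was -6.21 (SE 0.21) on day 1 and -6.18 (SE 0.18) on day 5. Q74 line 6 was the lowest of the lines on each day by its mean.

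ILMN_1374191 had the same form. Its values were 4.97 and 4.70 ln in Q74 line 4, 4.84 and 4.53 in Q74 line 6, 4.91 and 4.78 in Q23 line 1, and 4.53 and 4.63 in Q23 line 5, against 9.06 and 8.79 in PC12. The lines averaged 4.74 ± 0.13 (SD, n = 4 lines), with a log2 difference of -6.04 (SE 0.16, limma adjusted p = 6.0e-05). On days 1 and 5 it was -6.05 (SE 0.17) and -6.09 (SE 0.15). Line and PC12 arrays of these 4 probes did not overlap on any day, as the plot of array values shows. For day 0 the choice of the probes largely fixes this.

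**Figure D3:**
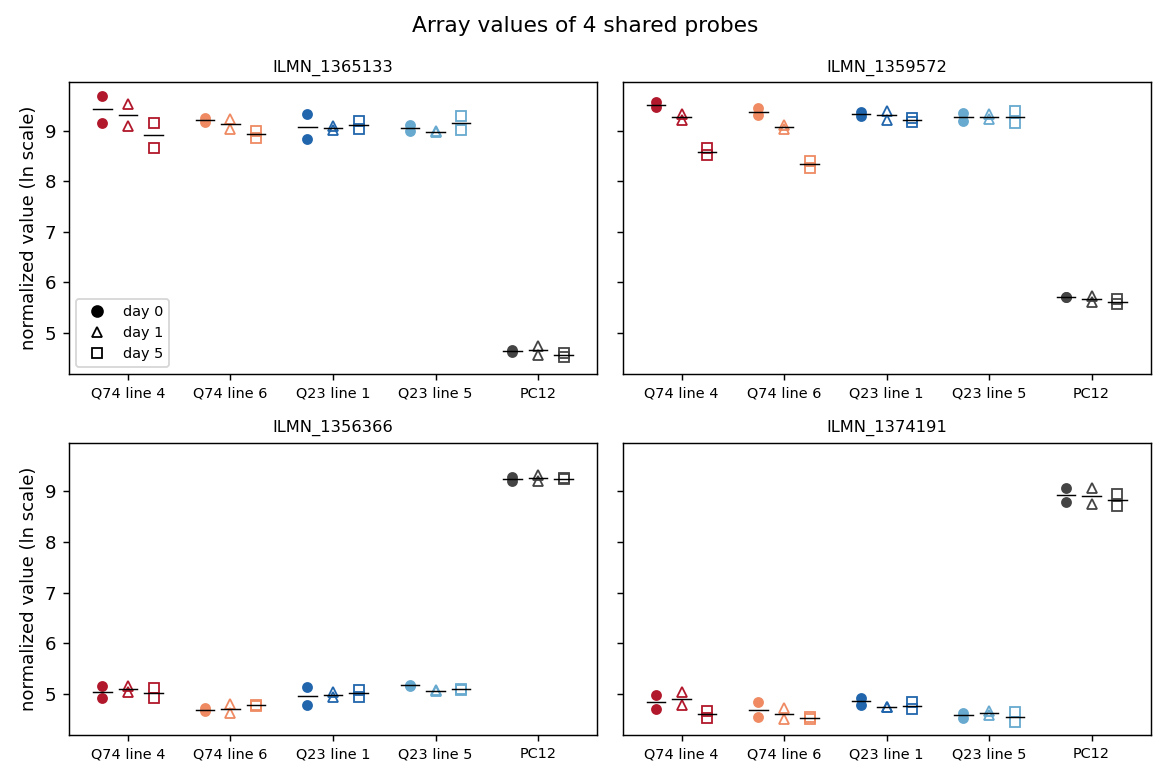
Normalized value (y axis, ln scale) of 4 shared probes on each array, by line and in PC12. Circles, triangles and squares are days 0, 1 and 5, each symbol is 1 RNA isolation and the bar is the mean of 2. The upper probes are near 9 in the lines and under 6 in PC12, the lower ones the reverse, and for ILMN_1359572 the Q74 lines fall to 8.27 to 8.65 on day 5.

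Most shared differences were still present after induction. Of the 573 higher probes, 535 (93.4%) were at least 2-fold higher in all 4 lines on day 1 and 510 (89.0%) on day 5. Of the 94 lower ones, 88 (93.6%) remained on day 1 and 73 (77.7%) on day 5. On all 3 days 566 probes were shared, 493 higher and 73 lower. Those that dropped out seldom turned round, since on day 5 the direction was that of day 0 in all 4 lines for 571 of the 573 and 93 of the 94. The median fold hardly moved over days 0, 1 and 5, at 3.24, 3.18 and 3.32 for the higher and 3.37, 3.30 and 3.21 for the lower probes. The arrays of days 1 and 5 are separate from those that chose the probes, but they come from the same lines and the same PC12 cells, so this shows that the differences lasted in these cultures and not that other clones would share them. Over all probes, the shared differences counted anew were, on day 1, 592 higher (2.63%) and 97 lower (0.431%), and on day 5, 606 higher (2.69%) and 82 lower (0.364%).

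The probes that dropped below the limit were those near it at the start. The 63 higher probes lost by day 5 had a smallest line fold of 2.20 at the median on day 0, against 2.80 in those that were kept, and for the 21 lower probes it was 2.13, against 3.02. In 43 of the 63 it was Q74 lines alone that were under 2-fold on day 5, in 6 it was Q23 lines alone and in 14 lines of both constructs. Of the 21 lower probes these numbers were 11, 6 and 4. On day 5, 43 of the 573 were under 2-fold in Q74 line 4, 33 in Q74 line 6, 11 in Q23 line 1 and 15 in Q23 line 5. Under 1.5-fold there were 10 in Q74 line 4, 9 in Q74 line 6 and 0 in either Q23 line. Of the 94 lower probes, 10 were under 2-fold in Q74 line 4, 8 in Q74 line 6, 1 in Q23 line 1 and 9 in Q23 line 5, so Q23 line 5 was near the Q74 lines in this count. Of the same probes, 4 were under 1.5-fold in Q74 line 4, 3 in Q74 line 6 and 0 in the Q23 lines. The difference between constructs in these counts was not tested. The plot by day shows the long tails of the Q74 lines on day 5 beside the narrow change of the medians.

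**Figure D4:**
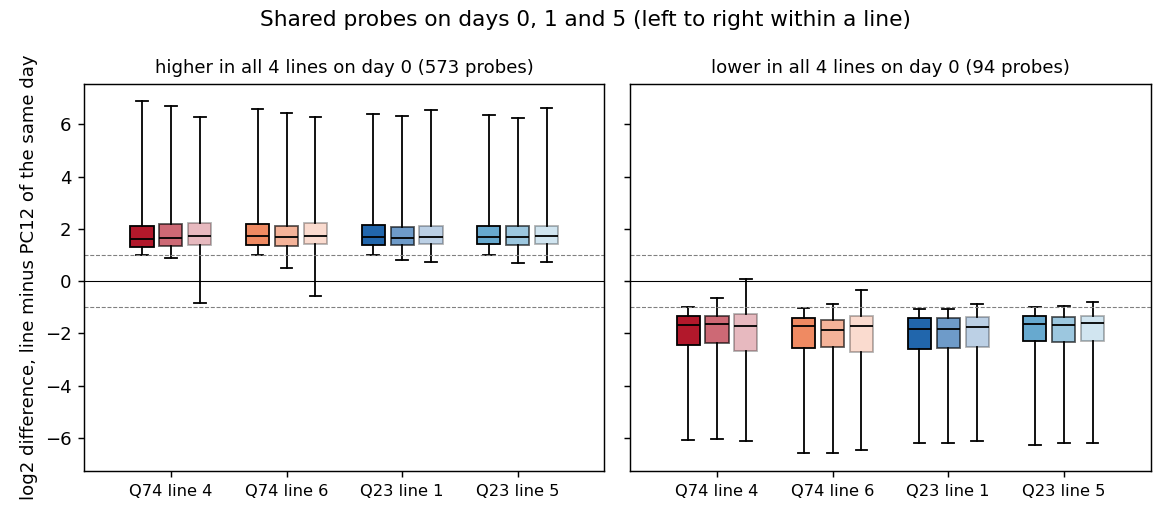
Log2 difference of each line from PC12 of the same day (y axis) for the 573 probes higher (left) and the 94 lower (right) in all 4 lines on day 0. Boxes are quartiles with the median, whiskers reach the lowest and highest probe, and dashed lines mark 2-fold. The medians stay in place and the tails towards 0 grow in the Q74 lines on day 5.

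Some of the shared probes moved within the Q74 lines. From day 0 to day 5 in Q74 line 4, 31 of the 573 higher probes rose and 44 fell by at least 1.5-fold. Among all 22521 probes, 426 rose and 418 fell by that size. In Q74 line 6, 8 of the 573 rose and 18 fell, against 105 and 149 among all 22521. In Q23 line 1, 1 of the 573 rose and 0 fell, and in Q23 line 5 and PC12 none moved by that size. Of the 94 lower probes, 8 rose and 12 fell in Q74 line 4, 6 and 7 did so in Q74 line 6, and none in the Q23 lines or PC12. These are changes of single values with no test. The 2-fold differences of each line from PC12 were also counted on day 5. Q74 line 4 had 1031 higher (4.58%) and 295 lower (1.31%), and Q74 line 6 had 1024 higher (4.55%) and 254 lower (1.13%). Q23 line 1 had 888 higher (3.94%) and 187 lower (0.830%), and Q23 line 5 had 932 higher (4.14%) and 140 lower (0.622%). The higher probes were more than on day 0 in each line and the lower ones more in the Q74 lines alone. Among these, 96 higher and 9 lower probes were shared on day 5 and not on day 0. They too started near the limit, with a smallest line fold of 1.89 and 1.87 at the median on day 0.

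Tested directly, the difference between lines and PC12 changed in few probes. Of 22521, 4 (0.0178%) changed between day 0 and day 1 in the lines otherwise than in PC12 (limma, adjusted p under 0.05), against 896 at an unadjusted p under 0.05, and none of the 4 was shared on day 0. In all 4 PC12 rose, by 1.49-fold to 1.89-fold, and this rise followed 1 array. Each line fell in all 4, to 0.709 to 0.983 of its day 0 level. In the probe with the largest change, PC12 had 6.58 and 4.86 ln on day 0 and 6.43 and 6.29 on day 1, so isolation 2 of day 0 alone was low. Without this isolation number of PC12 there were 0 calls, and without the other there were 81. From day 0 to day 5 there were 0 calls (0%) by limma, with 568 probes at an unadjusted p under 0.05 and a smallest adjusted p of 0.99. For the shared probes the smallest adjusted p was 0.53 for the change to day 1 and 0.99 for that to day 5. With 4 lines of 2 constructs in 1 group, a change in the Q74 lines alone widens the spread of this test.

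Across all probes the limma comparison gave 2811 calls (12.5%) on day 1, 1928 higher (8.56%) and 883 lower (3.92%), and 1991 calls (8.84%) on day 5, 1477 higher (6.56%) and 514 lower (2.28%). Of the 2484 probes of day 0, 2482 kept their direction on day 1 and 2480 on day 5, and 2035 were called again in that direction on day 1 and 1474 on day 5. The 1474 were 1154 of the 1693 higher and 320 of the 791 lower probes. After quantile normalization 1124 were higher and 981 lower on day 5, and after centring 2007 and 301. On day 1 these counts were 1547 and 1573, and 2194 and 700. Without Q23 line 5 the calls were 1606 on day 1 and 857 on day 5, without Q23 line 1 they were 1745 and 941, and with the second isolation of every culture alone they were 1760 and 1197.

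Differences of single lines were counted under a stricter rule, so their number cannot be set against that of the shared ones. At the 2-fold limit alone, 333 higher and 174 lower probes passed in exactly 1 line, against 573 and 94 in all 4. A probe was counted for a single line when it was at least 2-fold from PC12 in that line and under 1.5-fold in the other 3, so that intermediate probes were left out. There were 75, of which 52 were higher and 23 lower. Q74 line 6 had the most, 32 higher and 17 lower, and Q74 line 4 had 18 higher and 4 lower. Q23 line 1 and Q23 line 5 had 1 higher and 1 lower each. Without RNA isolation 1 of Q74 line 4, that line had 15 higher and 0 lower, so the 2-fold call of its 4 lower probes rested on the array that stood apart. On the separate arrays of day 5, 0 of these 4 were 2-fold lower and 3 were at least 1.5-fold lower, and on day 1, 1 was 2-fold lower. With that array as the only one of this line, the total over the 4 lines was 161.

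The single-line probes of Q74 line 6 mostly stayed 2-fold from PC12 in that line. Whether the other 3 lines stayed under 1.5-fold was not counted on days 1 and 5, for this or any line. Of the 49 probes of Q74 line 6, 43 were still at least 2-fold from PC12 in that line on day 1 and 44 on day 5. The median fold of the higher ones was 2.29 on day 0, 2.4 on day 1 and 2.57 on day 5. Of the 22 of Q74 line 4, 12 remained on day 1 and 7 on day 5, and the median fold of its higher ones was 2.16, 2.13 and 1.90 over the 3 days. Q23 line 5 kept both of its probes on days 1 and 5, and Q23 line 1 kept 1 of 2 on day 1 and 0 on day 5. Since these probes were chosen at a limit on day 0, some drop below it on another array is built in.

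**Figure D5:**
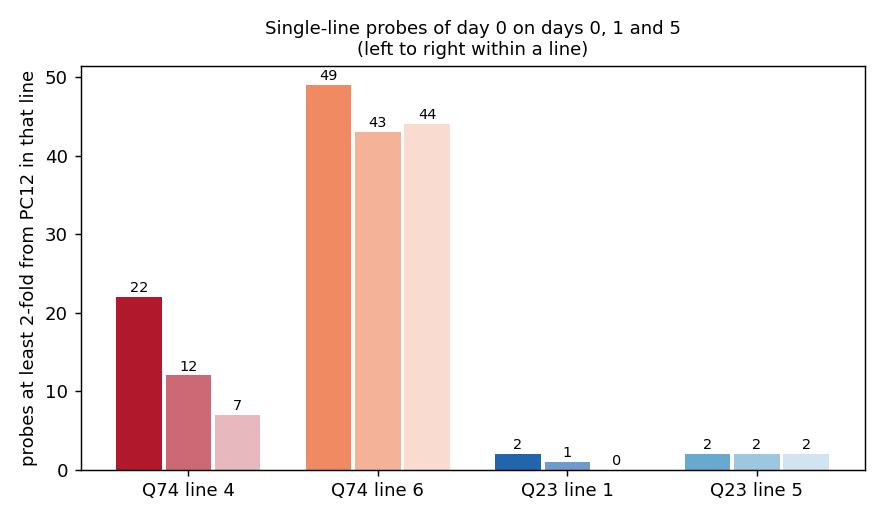
Number of probes (y axis) that on day 0 were at least 2-fold from PC12 in the named line and under 1.5-fold in the other 3, and how many of these were still at least 2-fold from PC12 in that line on days 1 and 5. Q74 line 6 kept 44 of 49 on day 5 and Q74 line 4 kept 7 of 22.

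One probe in Q74 line 6 was far above the others of its kind. It had 8.10 and 8.40 ln in Q74 line 6 on day 0, and 4.96 and 4.89 in Q74 line 4, 4.68 and 4.62 in Q23 line 1, and 4.63 and 4.54 in Q23 line 5, against 4.57 and 4.75 in PC12. Q74 line 6 was 36.2-fold above PC12 on day 0, 39.8-fold on day 1 and 45.4-fold on day 5, and the next probe of this line was at 3.91-fold. The strongest single-line probe of Q74 line 4 had 6.32 and 6.60 ln in that line, against 4.03 and 4.17 in PC12, with the other 6 line arrays at 4.24 to 4.47. It was 10.6-fold, 10.02-fold and 11.03-fold above PC12 on days 0, 1 and 5. Both were seen in each RNA isolation and on each day.

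Other single-line values were less steady. The strongest lower probe of Q74 line 4 had 4.66 ln in isolation 1 and 6.85 in isolation 2, against 6.78 and 6.66 in PC12, and on days 1 and 5 the line was 1.11-fold and 1.46-fold above PC12. This difference was that of 1 array. In Q74 line 6 the strongest lower probe had 6.56 and 6.00 ln, against 7.68 and 7.47 in PC12, and the line stayed lower on day 1, at 6.59 and 6.07 ln, and on day 5, at 6.71 and 6.20 ln. The lower probe of Q23 line 5 was no longer particular to that line by day 5. It had 5.79 and 5.77 ln in Q23 line 5 on day 0, against 6.84 and 6.97 in PC12 and 6.75 to 7.06 in the other line arrays. On day 5 the Q74 lines had fallen to 5.17 and 5.14 ln (line 4) and 5.23 and 5.26 ln (line 6), with Q23 line 5 at 5.45 and 5.47 and Q23 line 1 at 6.22 and 6.54, against 6.75 and 6.86 in PC12.

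Few probes separated the constructs before induction by their distance from PC12. Probes that differed between the constructs in another way were not counted by this rule. With both lines of a construct at least 2-fold from PC12 and both lines of the other under 1.5-fold, there were 12 higher and 3 lower probes for Q74 and 3 higher and 1 lower for Q23. On day 5, 11 and 2 of the Q74 probes and 3 and 1 of the Q23 probes were still at least 2-fold from PC12 in both lines of their construct. With no condition on the other lines beyond being under 2-fold, exactly Q74 line 4 and Q23 line 1 were 2-fold higher in 41 probes, the 2 Q23 lines in 35, Q74 line 6 and Q23 line 5 in 33, the 2 Q74 lines in 29, Q74 line 4 and Q23 line 5 in 11, and Q74 line 6 and Q23 line 1 in 9. Pairs of 1 construct were thus not the most frequent.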

How the data were processed

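RNA was hybridized to Illumina RatRef-12 BeadChips. The authors took bead averages from BeadStudio without background correction and normalized them with VSN. The deposited values were read as natural log (ln) from their range, 3.91 to 11.1, since the log base is not stated, nor whether all arrays were normalized together. In R 4.3.3 with limma 3.58.1, RNA isolations of a line were averaged and the mean of 4 lines was compared with PC12 (1 value, 3 residual degrees of freedom) per day. Changes from day 0 were fitted likewise. P-values are two-sided and adjusted by Benjamini-Hochberg over 22521 probes. They rest on the spread between 4 lines, and the spread between PC12 cultures was not estimated. The number of lines and the 1 PC12 value limit the precision. No probe was filtered out. The fit was also run on simulated data. Of 100 probes changed by 0.5 ln it called 41, and of 100 changed by 1 ln it called 80. In these data PC12 was drawn with the mean and SD of the lines. The run therefore could not check whether PC12 varies like a line. Python 3.11.15 and matplotlib 3.10.9 drew the plots.

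Named probes are the 2 higher and 2 lower shared probes, called by limma, whose nearest line was farthest from PC12. No table used here gives the gene of a probe, so the gene lists and markers chosen for this comparison were not applied. Members and lists were chosen with earlier results of these data known. Alternatives were other scalings, ways of handling isolations, thresholds, fits and left-out lines or isolations. Leaving out single isolations of Q74 line 4 was chosen after seeing the data.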

Additional observations from a re-analysis of the deposited data

Results flagged for a closer look

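On day 1, the values of ILMN_1359572 in the 4 lines were uneven. The gap of Q74 line 6 to the nearest other line was 0.848 of the range of the lines, although it remained 30.1-fold above PC12. On day 5, the means of the 8 line arrays were uneven in the same way, with a gap of 0.614 of their range between an outer array and the next. Chance flags about 1 in 20 such groups. Between day 0 and day 1, the lines changed otherwise than PC12 in 4 probes, in which the rise of PC12 followed 1 array as described above.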

How the results depend on the processing

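For the 4 named probes, direction and call were the same in all 240 combinations of day and alternative. These probes were chosen as called and farthest from PC12, so this was largely fixed by the choice and says nothing of other probes. Counts moved more. Against 2484, 2811 and 1991 calls on days 0, 1 and 5, taking each RNA isolation as a sample gave 4969, 5296 and 5346, with lines as random blocks 4370, 4600 and 4131, and with PC12 as 2 samples 5208, 5804 and 5339. Pooling the spread over 3 days gave 3906 on day 0 and 4362 on day 5. These fits count isolations or days as more samples. With the isolation number as a replicate block there were 4830, 5301 and 5084 calls, and no call was left of the 4 changes to day 1 (0). Same-numbered isolations share only a number, and the correlation of their deviations between cultures was -0.27 to 0.31 over 10 pairs. Leaving out each line or isolation in turn gave 1252 to 3347 calls on day 0, 1606 to 3800 on day 1 and 857 to 2426 on day 5. With fewer lines the fit has fewer residual degrees of freedom.

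The 4 calls of the change to day 1 became 0 with isolations as samples, with or without a random block, 1 with the PC12 arrays as 2 samples, 11 with Q74, Q23 and PC12 as 3 groups, and 0 to 81 with a line or isolation left out. They were 1 without Q74 line 4, 22 on the second isolations alone and 0 on the first alone. Without isolation 1 or 2 of Q74 line 4 they were 1 and 0. For the change to day 5 there was 1 call with 3 groups, 1 with a variance trend and robust prior, and 0 to 1 with a line or isolation left out. The cause of these changes was not tested.

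The 667 shared differences became 1506 at 1.5-fold, 266 at 3-fold and 440 when both isolations had to pass against both PC12 arrays. The 583 of them kept on day 5 became 1208, 228 and 381, and the 75 single-line differences 201, 9 and 32. Leaving out a line or isolation gave 594 to 755, 487 to 650 and 61 to 164. Scaling kept all 3 within 1.5 times. Dim probes limit what could be seen, since 13443 of 22521 probes lay at least ln 2 above the lowest PC12 value and only these could be 2-fold lower in a line without going below that value.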
